A study of Mus musculus with 49 samples.

Results

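The short deletions described here are sequencing reads with a single deletion of 1 or 2 bases in a clonal mouse embryonic stem (mES) cell line cut by Cas9. They were chosen by deletion length, a measured value, which makes their number and length a description and no finding. They were 49137 of the 250155 deletion reads, and of 577722 reads in all, at the 36 integrated reporters (IRs) of the line. By guide they were 14057 of 93161 deletion reads with sgRNA1, 17710 of 75192 with sgRNA2 and 17370 of 81802 with sgRNA3.

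The study placed barcoded EGFP reporters at many sites of the genome with the PiggyBac transposon and cut all of them at once with Cas9 and a guide RNA. The cells are EStTA mES cells, which express a tetracycline-controlled transactivator from the ROSA26 promoter, and the line was grown from a single cell with 36 IRs under the PGK promoter. All IRs thus share a clone, a promoter and the target sequence and differ in their place in the genome. Each of sgRNA1, sgRNA2 and sgRNA3 has 1 deposited sample of genomic DNA amplicons, in which the authors merged replicate assays. With no replicates to compare, no test was made, and the spread given is the SD over the 36 IRs. The 95% Wilson intervals cover the counting error of reads only. The reads carry no molecular identifiers, so PCR copies count as separate reads and the intervals may be too narrow for molecules. The deposited data of the sgRNA3 sample carry a different number in their name from those of sgRNA1 and sgRNA2, with no meaning stated. The sgRNA3 reads also cover another stretch of the reporter. A difference of sgRNA3 from the other guides cannot be told apart from a difference between these preparations. Reads at the 36 IRs numbered 198078, 169141 and 210503 with sgRNA1, sgRNA2 and sgRNA3, and the fewest short deletions at any IR were 166, 191 and 92.

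Cas9 from Streptococcus pyogenes needs a PAM of the form NGG, and usually cuts both strands a few bases upstream of it, though the strands can also be cut at different places. Cells rejoin the ends mainly by non-homologous end joining, which can trim bases from an end before it is sealed or fill in an overhang. Loss of bases next to the break is one trace of trimming, and gain of a copy of a base next to the break is one trace of filling in.

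The targets are shown because the bases around the cut set which short deletions can be told apart. They are written 5′ to 3′ from the supplementary sequences of the study. The PAM, in capitals, was added from the most frequent wild-type read of each sample.

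sgRNA1: gccgagagtgatcccggcggCGG
sgRNA2: cgccgggatcactctcggcaTGG
sgRNA3: agtgtcacctaaatcgtatgCGG

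Positions are counted upstream from the PAM, with 1 for the base next to it, and 3|4 is the site between positions 3 and 4. The PAM side of 3|4 holds positions 3 to 1, the PAM and all bases past it, and the far side holds position 4 and beyond. The targets of sgRNA1 and sgRNA2 lie on opposite strands of nearly the same stretch, and their 3|4 sites are 15 bases apart.

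Short deletions made up a larger part of the deletions with sgRNA2 and sgRNA3 than with sgRNA1. Averaged over IRs, their share of deletion reads was 15.2% ± 1.46 (SD, n = 36) with sgRNA1, from 12.1% to 18.8%. With sgRNA2 it was 24.1% ± 3.43, from 18.6% to 37.0%, and with sgRNA3 it was 21.4% ± 3.57, from 12.8% to 27.4%. The share was higher with sgRNA2 than with sgRNA1 at 36 of 36 IRs, by 8.91 points on average. For sgRNA3 it exceeded the sgRNA1 value at 34 of 36 IRs, by 6.16 points. Between sgRNA3 and sgRNA2 the order was less uniform, with sgRNA3 lower at 26 IRs and higher at 10.

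The lower share with sgRNA1 stood beside a large class just outside the length limit. Deletions of 2 bases, just inside it, were 7.41% of deletion reads with sgRNA1 (95% interval 7.24% to 7.58%), and deletions of 3 bases, just outside, were 40.8% (40.5% to 41.2%). With sgRNA2, deletions of 2 bases were 11.4% and deletions of 3 bases 5.65%. With sgRNA3 these shares were 13.1% and 6.09%. The steep rise from 2 to 3 bases was thus seen with sgRNA1, while the share fell from 2 to 3 bases with sgRNA2 and sgRNA3. As a percentage of all reads of an IR, short deletions were 7.19% ± 1.27 with sgRNA1, 10.6% ± 1.35 with sgRNA2 and 8.19% ± 1.96 with sgRNA3. On this scale sgRNA2 was still higher than sgRNA1 at 36 of 36 IRs, and sgRNA3 was higher than sgRNA1 at 26.

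Losses of 1 and of 2 bases were about equally frequent with sgRNA1 and sgRNA2. The 1-base share of the short deletions was 51.2% ± 4.54 with sgRNA1 and 52.1% ± 4.03 with sgRNA2. With sgRNA3 it was 39.0% ± 5.48, which was below the sgRNA1 value at 34 of 36 IRs and below the sgRNA2 value at 34 as well. In reads, sgRNA3 gave 6682 losses of 1 base and 10688 losses of 2 bases.

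A few alleles made up nearly all short deletions. An allele here is a sequence left by the deletion, so that losses at several placements that leave the same sequence are merged. The 5 most frequent alleles held 93.5% of the short deletions with sgRNA1, 92.4% with sgRNA2 and 93.8% with sgRNA3, out of 62, 61 and 19 alleles seen. The 3 most frequent of each guide are shown on the target, with the lost bases in capitals at one of their possible placements.

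sgRNA1 first: gccgagagtgatcccGgcggcgg
sgRNA1 second: gccgagagtgatcccGGcggcgg
sgRNA1 next: gccgagagtgatcccgGCggcgg
sgRNA2 first: cgccgggatcactctcgGcatgg
sgRNA2 second: cgccgggatcactctCGgcatgg
sgRNA2 next: cgccgggatcactctcgGCatgg
sgRNA3 first: agtgtcacctaaatCGtatgcgg
sgRNA3 second: agtgtcacctaaatcGtatgcgg
sgRNA3 next: agtgtcacctaaatcgTatgcgg

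With sgRNA1 the leading allele was the loss of 1 G from the pair at positions 4 and 5, with 5675 reads, or 40.4% ± 4.41 of short deletions over IRs (30.3% to 50.6%). Which G of the pair was lost cannot be read from the sequence. Loss of both came second, with 4474 reads and 31.4% ± 3.68. Loss of GC next to the cut, which has 2 placements within positions 2 to 4, followed with 1756 reads, or 12.5% of the pooled short deletions. Loss of the C at position 3 alone had 858 reads (6.10%), and loss of CG at positions 5 and 6 had 383 (2.72%). The far-side pair of G was therefore shortened or removed in the greater part of the short deletions of sgRNA1.

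With sgRNA2 the pair of G lies across the 3|4 site, at positions 3 and 4. Loss of 1 G from this pair led at all 36 IRs, with 8033 reads and 45.8% ± 4.18 of short deletions (38.2% to 60.4%). Loss of CG at positions 4 and 5 was second with 5115 reads, or 28.9% of the pooled short deletions. Its counterpart on the PAM side, loss of GC at positions 2 and 3, had 1434 reads (8.10%). Loss of both G, 1 from each side, was rarer, with 410 reads (2.32%). Of the pairs next to the 3|4 site, the far-side one was thus lost most often and the pair across the site least often. Loss of a TC unit had 1379 reads (7.79%) and has 4 placements within positions 5 to 9, all on the far side.

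With sgRNA3 the leading loss did not reach the 3|4 site. Loss of CG at positions 5 and 6 led with 6178 reads and 35.1% ± 6.11 of short deletions (23.4% to 49.0%). Loss of the G at position 5 alone had 3033 reads and 17.9% ± 4.67. Both leave the T at position 4 in place, next to the 3|4 site. Loss of that T alone came next, with 2777 reads and 16.1% ± 4.89. It was followed by loss of GT at positions 4 and 5, with 2400 reads (13.8% of the pooled short deletions). Loss of AT, which has 2 placements within positions 2 to 4, had 1909 reads (11.0%). Of these 5 alleles the loss of AT alone has more than 1 placement, and ambiguous alleles were 11.1% of the short deletions of sgRNA3, compared to 55.5% for sgRNA1 and 53.7% for sgRNA2.

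The leading allele was mostly the same across IRs. The allele that led in the pooled reads also led at 32 of 36 IRs for sgRNA1, 36 for sgRNA2 and 34 for sgRNA3. The second allele was also the same at 32 and 36 IRs with sgRNA1 and sgRNA2 but at 15 with sgRNA3, where loss of the G at position 5 and loss of the T at position 4 had close shares. The 5 most frequent alleles were the same set as in the pooled reads at 32, 13 and 34 IRs for sgRNA1, sgRNA2 and sgRNA3.

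The same losses were rare where the reads cover the target but another guide was used, which gives their background. The leading allele of sgRNA1 was 2.87% of all reads with sgRNA1 and 0.00177% with sgRNA2, where it had 3 reads. The leading allele of sgRNA2 was 4.75% of all reads with sgRNA2 and 0.0121% with sgRNA1, where it had 24 reads. Reads with a lesion of the other guide could not also count as this single loss, so these percentages of all reads understate the background. Mutated reads were 51.2% with sgRNA1 and 53.0% with sgRNA2, averaged over IRs. No such background was available for sgRNA3, whose target is not covered by the reads of the other guides.

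Short deletions touched the 3|4 site least with sgRNA3, and the order of sgRNA1 and sgRNA2 depends on placement. A deletion touches the site when it removes the base on either side of it, and an ambiguous allele was split evenly over its placements. The share that touched 3|4 was 84.8% ± 3.02 with sgRNA2, 70.5% ± 2.47 with sgRNA1 and 44.1% ± 8.16 with sgRNA3. At 36 of 36 IRs the sgRNA3 value was below those of both other guides. For sgRNA1 the value depends on where the single G is placed: it was 90.7% with each ambiguous allele put nearest to the cut and 50.3% with the placement that the authors deposited. The share of sgRNA3 was below both. The share of sgRNA2 was 84.8% under the even split and lies between these values of sgRNA1. With only alleles of 1 placement, chosen after seeing the data, sgRNA1 had 85.0% and sgRNA2 84.7%.

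The deletions that missed 3|4 with sgRNA3 mostly began 1 base farther from the PAM. Of its short deletions, 53.0% ± 8.49 touched the site between positions 4 and 5 but not 3|4, from 37.4% to 77.2% over IRs. This share was 4.08% with sgRNA2. It was 22.9% with sgRNA1, where it came largely from the even split of the single G. Counting each ambiguous allele at the placement nearest to 3|4, not by the even split, 94.5%, 96.0% and 98.5% of short deletions lay within 1 base of it with sgRNA1, sgRNA2 and sgRNA3.

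Base by base, losses centred on position 5 with sgRNA3. With sgRNA3 position 5 was lost in 66.8% of short deletions, position 6 in 36.6%, position 4 in 35.3% and position 3 in 14.4%. With sgRNA1 position 4 was lost in 58.3%, position 5 in 54.7% and position 3 in 18.6%. With sgRNA2 position 4 was lost in 53.9%, position 3 in 33.1% and position 5 in 33.0%. The order of positions 4 and 5 with sgRNA1, and of positions 3 and 4 with sgRNA2, assumes the even split of the single G over its pair, and would turn if that G were always put at position 5 with sgRNA1 or at position 3 with sgRNA2.

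With ambiguous alleles split evenly, most short deletions lay on the far side of 3|4, the side away from the PAM. The shares with sgRNA1, sgRNA2 and sgRNA3 that lay wholly on the far side were 76.0%, 64.4% and 84.4%. The PAM side alone was hit in 17.7% ± 2.91, 33.3% ± 2.87 and 10.2% ± 4.00, and losses across the site made up 6.29%, 2.31% and 5.40%. With sgRNA1 part of the PAM-side share lay past the PAM, and it was 14.2% among alleles inside the target and PAM. The deposited placement gave 11.6% for sgRNA1 and 15.6% for sgRNA3. With only alleles of 1 placement, a choice made after seeing the data, the PAM-side share was 22.5% for sgRNA1, 22.6% for sgRNA2 and 5.46% for sgRNA3, so that the excess of sgRNA2 over sgRNA1 was not seen there. The PAM-side share of sgRNA2 rests on the single G, which can be put on either side: with the deposited placement it was 56.2%, so that the PAM side then held more than the far side. For sgRNA2 the side of the 1-base losses is therefore not known from the sequence. Its 2-base losses are less affected, and 77.1% of them lay on the far side (95% interval 76.2% to 77.9%) and 18.1% on the PAM side (17.3% to 19.0%). Losses of 2 bases with sgRNA1 lay on the far side in 71.7% and on the PAM side in 15.5%, and with sgRNA3 in 81.2% and 9.91%.

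Some short deletions carried a substituted base directly beside the lost bases. This was so for 10.2% of those inside the target with sgRNA3 (95% interval 9.78% to 10.7%), where 0.607% of wild-type reads had a substitution at the same places. With sgRNA1 the shares were 5.66% and 1.44%, and with sgRNA2 5.09% and 4.45%. On these averages the excess over wild-type reads was widest with sgRNA3. The average of sgRNA2 joins alleles below and above their wild-type value. Loss of CG at positions 4 and 5 had 1.70% against 8.42%, and loss of the C at position 2 had 78.7% against 3.21%. The wild-type reads are from the same cut samples, so they give no error rate of uncut cells. Single alleles differed: 49.9% of the reads that lost CG at positions 5 and 6 with sgRNA1 had such a substitution, against 0.358% of the reads that lost both G at positions 4 and 5. With sgRNA3 the share was 15.2% for loss of the G at position 5 and 5.75% for loss of CG at positions 5 and 6. Whether a read with a substitution beside the loss is a short deletion or a replacement of more bases was not tested.

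Gains and losses of the base at position 4 were set side by side, since this base is the one most often gained with these guides. It is a G with sgRNA1 and sgRNA2, in a pair, and a T with sgRNA3. Insertions that gain a copy of it had 2046 reads with sgRNA1, 4740 with sgRNA2 and 49158 with sgRNA3, which is 60.0%, 72.4% and 97.7% of the 1-base insertions. Losses of 1 such base had 5675, 8033 and 2777 reads in the same order. With sgRNA1 and sgRNA2 these are losses of either G of the pair, and so not of position 4 alone, while the T of sgRNA3 is single. Of gains and losses together, losses were 73.6% ± 4.69 with sgRNA1, 62.9% ± 5.31 with sgRNA2 and 5.22% ± 1.50 with sgRNA3. Loss thus outnumbered gain 2.77-fold with sgRNA1 and 1.69-fold with sgRNA2, while gain outnumbered loss 17.7-fold with sgRNA3. Taking all short deletions, there were 4.12, 2.70 and 0.345 for each 1-base insertion with sgRNA1, sgRNA2 and sgRNA3.

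The spread of the share of short deletions over IRs was set against the binomial error of independent reads. PCR copies of a molecule are counted as separate reads here and would widen the spread, so a ratio above 1 is not by itself a difference between IRs. The SD over IRs was 1.95 times that error with sgRNA1, 3.38 times with sgRNA2 and 3.71 times with sgRNA3. The ratio of sgRNA2 rests in large part on BC_26 and BC_30: without them, a choice made after seeing the data, the SD fell from 3.43 to 1.84 points and the highest share from 37.0% to 27.2%. With sgRNA3 the SD without them was 3.49, and with sgRNA1 it was 1.36.

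The IRs with the highest share were BC_30 with sgRNA1 (18.8%, 95% interval 16.4% to 21.6%), BC_26 with sgRNA2 (37.0%, 33.6% to 40.5%) and BC_1 with sgRNA3 (27.4%, 25.8% to 29.0%). None of these 3 has a mapped position in the data used, and they hold the 3 lowest mutation frequencies of the 36 IRs with each guide. Of the 36 IRs, 9 have no mapped position and 3 lie in an exon. The lowest share with sgRNA1 was at BC_21 (12.1%, 10.9% to 13.4%), on chromosome 13 at position 13763115 of mm9, in an exon of Lyst, a gene for a regulator of lysosome traffic. The lowest share with sgRNA2 was at BC_31 (18.6%, 17.0% to 20.2%), on chromosome 11 at 3033098, in an exon of Sfi1, a gene for a centrosome protein. With sgRNA3 it was BC_2 (12.8%, 11.8% to 13.8%), on chromosome 3 at 129469118, outside the genes of the GENCODE annotation of mm9.

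An IR with a high share with one guide did not need to have it with another. BC_26 held 37.0% with sgRNA2 but 14.6% with sgRNA1 and 15.1% with sgRNA3, where it ranked 35 of 36. BC_30 held 18.8% with sgRNA1, 34.9% with sgRNA2 and 23.9% with sgRNA3. BC_26 also differed in its alleles, with a 1-base share of 67.4% with sgRNA1 and 65.1% with sgRNA2, the highest of the 36 IRs with both guides. With sgRNA3 its short deletions touched 3|4 in 21.7% of 92 reads (95% interval 14.5% to 31.2%), the lowest of the 36. With sgRNA1 the share was also the lowest, at 63.1% of 172 reads, but with sgRNA2 it was the highest, at 92.8% of 278 reads.

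Relations over the 36 IRs are given as a description, as Pearson's r and Spearman's rho. The IRs share a clone and a library for each guide. Within a guide both measures of a relation come from the same reads, and between guides they come from different samples. There were 9 main relations among 75 computed, not counting the main ones repeated in percent of mutated reads and as log odds. Each r was also computed without the 2 IRs farthest from the median of the measure on the x axis.

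The share of deletion reads that were short had no common relation to the frequency of 1-base insertions, in percent of all reads. With sgRNA1 r was 0.23 (rho 0.29), and 0.22 without the farthest 2 IRs. With sgRNA2 r was 0.59 (rho 0.29), and 0.36 without them. With sgRNA3 r was -0.16 (rho -0.27), and -0.22 without them. The values depend on the denominator: with short deletions in percent of all reads r was 0.37, 0.17 and -0.46 for sgRNA1, sgRNA2 and sgRNA3, and in percent of mutated reads it was -0.57 for sgRNA3. The value of 0.59 with sgRNA2 rested in part on IRs of low mutation frequency, and without BC_26 and BC_30, a choice made after seeing the data, it was 0.28. With the same IRs left out, r in percent of all reads was 0.35, 0.51 and -0.26 for sgRNA1, sgRNA2 and sgRNA3. The effect of the denominator with sgRNA2 thus also depended on these IRs.

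The relation to total mutation frequency depended on BC_26 and BC_30 in different ways. With sgRNA2 r was -0.64 (rho -0.20), and without these IRs, which are the farthest 2, it was -0.10, so that the negative relation rested on them. With sgRNA1 r was 0.07 (rho 0.30), and 0.40 without them. With sgRNA3 r was 0.02 (rho -0.01), and -0.14 without them. No relation of the same sign and size was thus seen for the 3 guides. Short deletions in percent of all reads are a part of the mutated reads. With sgRNA1 they rose with mutation frequency (r = 0.85, rho 0.85, and 0.85 without the farthest 2 IRs), as they did with sgRNA2 (r = 0.76, rho 0.82, and 0.78 without them). With sgRNA3 r was 0.55 (rho 0.39), and it was 0.20 without BC_26 and BC_30, on which it rests.

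Single alleles of sgRNA3 related to 1-base insertions in opposite ways. The share of deletion reads that lost the T at position 4 rose with insertion frequency (r = 0.47, rho 0.54, n = 36, and 0.33 without the farthest 2 IRs). The share that lost CG at positions 5 and 6 fell with it (r = -0.46, rho -0.47, and -0.39 without them). With sgRNA2, the loss of 1 G from the pair across 3|4 rose with insertions (r = 0.59, rho 0.38, and 0.42 without them), and r was 0.35 without BC_26 and BC_30. These alleles were picked among the relations computed after their values were seen.

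Between guides, the relation of short deletions at an IR depended on the denominator. For their share of deletion reads it was weak. For sgRNA1 and sgRNA2 r was 0.38 (rho 0.43), and 0.16 without the farthest 2 IRs. For sgRNA1 and sgRNA3 it was 0.39 (rho 0.37), and 0.31 without them. For sgRNA2 and sgRNA3 it was 0.12 (rho 0.34), and 0.50 without them, which are BC_26 and BC_30. Total mutation frequency, measured on the same reads, had r of 0.98, 0.93 and 0.94 for the same pairs of guides. Its rho was 0.96, 0.83 and 0.84, and r without the farthest 2 IRs was 0.97, 0.86 and 0.88, all above those of the share of deletion reads. In percent of all reads, the denominator of mutation frequency, short deletions had r of 0.83 (rho 0.84), 0.52 (rho 0.50) and 0.42 (rho 0.37). Without the farthest 2 IRs these were 0.79, 0.58 and 0.47. Without BC_26 and BC_30, a choice made after seeing the data, they were 0.81, 0.34 and 0.28. The share of deletion reads then had r of 0.40, 0.37 and 0.50. With those IRs left out, r was thus higher in percent of all reads for sgRNA1 with sgRNA2 alone. In percent of mutated reads r for sgRNA2 and sgRNA3 turned to -0.25.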

How the data were processed

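Amplicon reads of the 3 cell line samples were used. The authors aligned each read semi-globally to the reporter and deposited its barcode, lesion class, changed bases and position, with the score of that alignment, which has no fixed unit and was used in an alternative only. The submitters' processing notes name Bowtie2 2.0 and mm9. The members and lists were chosen with earlier results of these data known. Reads with 1 of the 36 barcodes and a single deletion of 1 or 2 bases were counted, and reads with several deletions (1638, 4370 and 643 with sgRNA1, sgRNA2 and sgRNA3) were not. Shares were computed per IR and averaged, with ambiguous alleles split evenly over placements. Named were the 5 most frequent alleles of each guide and the IRs at either extreme of the share of deletion reads. Alternatives changed placement, the score minimum, the target window, pooling, the denominator and the correlation. Scripts ran in Python 3.11.15 with pandas 2.3.3, numpy 2.4.6 and scipy 1.17.1 and were tested on simulated data. Left out were 2 count columns that belong to another study.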

Additional observations from a re-analysis of the deposited data

How the results depend on the processing

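No analysis paired by replicate was possible because each guide has 1 sample, though guides were compared within the same IRs. Of 111 alternatives for shares, 59 changed the mean over IRs by no more than its 95% counting interval allows and 52 changed it by more. That interval served as a yardstick and does not measure a change between settings on the same reads. Some outcomes were fixed by the setting. Counting fewer or more short deletions out of the same reads can only lower or raise their share of those reads. With sgRNA2 and sgRNA3 the share touching 3|4 does not depend on the placement taken. These counts are therefore no measure of robustness. Of 54 alternatives for correlations, 20 changed r by at most 0.1 with its sign kept, 29 changed it by more and 5 turned its sign. Not all of these are distinct. For mutation frequency, and for sgRNA2 with sgRNA3, the farthest 2 IRs are BC_26 and BC_30, so leaving them out is counted again. The sign turns for mutation frequency with sgRNA3 start from an r of 0.02. Values that moved or turned follow by setting, each in the guide or pair of guides in brackets. Apart from outcomes fixed by the setting, the cause was not tested. Without reads whose score was under the 10th percentile, the share of deletion reads was 15.8% (sgRNA1), 25.5% (sgRNA2) and 23.9% (sgRNA3). The share of all reads was then 7.41% (sgRNA1), 11.1% (sgRNA2) and 8.71% (sgRNA3), and the PAM-side share was 16.8% (sgRNA1). The score rises with matched bases and falls with gaps, so this cut is not independent of deletion length. It took 3.21%, 2.21% and 0.760% of the short deletions with sgRNA1, sgRNA2 and sgRNA3. Counting alleles inside the target and PAM only, the share of deletion reads was 14.6% (sgRNA1) and 23.5% (sgRNA2), the share of all reads was 6.91% (sgRNA1) and 10.3% (sgRNA2), and the 1-base share was 50.3% (sgRNA1). There, the share touching 3|4 was 73.5% (sgRNA1) and 87.0% (sgRNA2), the PAM-side share was 14.2% (sgRNA1) and 34.1% (sgRNA2), and the share of the leading allele was 42.2% (sgRNA1) and 47.0% (sgRNA2). Reads with several deletions were also added where a part was of 1 or 2 bases (1352, 3193 and 386 reads with sgRNA1, sgRNA2 and sgRNA3). With them, the share of deletion reads was 16.7% (sgRNA1), 28.4% (sgRNA2) and 21.9% (sgRNA3), and the share of all reads was 7.88% (sgRNA1), 12.5% (sgRNA2) and 8.38% (sgRNA3). Not counting reads with a substitution beside the loss, a choice made after seeing the data, the share of deletion reads was 14.3% (sgRNA1), 22.9% (sgRNA2) and 19.2% (sgRNA3), the share of all reads was 6.75% (sgRNA1), 10.0% (sgRNA2) and 7.35% (sgRNA3), and the 1-base share was 37.0% (sgRNA3). Under the same setting, the share touching 3|4 was 72.9% (sgRNA1) and 87.3% (sgRNA2), the PAM-side share was 32.5% (sgRNA2) and 9.60% (sgRNA3), and the share of the leading allele was 39.3% (sgRNA1), 47.0% (sgRNA2) and 37.0% (sgRNA3). With all reads pooled, the share of deletion reads was 23.6% (sgRNA2). Without BC_26 and BC_30, also chosen after seeing the data, the share of deletion reads was 23.4% (sgRNA2), and the share of all reads was 7.33% (sgRNA1) and 8.48% (sgRNA3). There, r with insertions was 0.33 (sgRNA1) and 0.28 (sgRNA2), r with mutation frequency was 0.40 (sgRNA1), -0.10 (sgRNA2) and -0.14 (sgRNA3), and r between guides was 0.50 (sgRNA2 with sgRNA3). With the deposited placement, the share touching 3|4 was 50.3% (sgRNA1), and the PAM-side share was 11.6% (sgRNA1), 56.2% (sgRNA2) and 15.6% (sgRNA3). With the placement nearest to the cut, the share touching 3|4 was 90.7% (sgRNA1). With only alleles of 1 placement, chosen after seeing the data, the share touching 3|4 was 85.0% (sgRNA1) and 37.6% (sgRNA3), and the PAM-side share was 22.5% (sgRNA1), 22.6% (sgRNA2) and 5.46% (sgRNA3). With short deletions in percent of all reads, r with insertions was 0.37 (sgRNA1), 0.17 (sgRNA2) and -0.46 (sgRNA3), r with mutation frequency was 0.85 (sgRNA1), 0.76 (sgRNA2) and 0.55 (sgRNA3), and r between guides was 0.83 (sgRNA1 with sgRNA2), 0.52 (sgRNA1 with sgRNA3) and 0.42 (sgRNA2 with sgRNA3). Spearman's rho in place of r with insertions was 0.29 (sgRNA2) and -0.27 (sgRNA3), that with mutation frequency was 0.30 (sgRNA1), -0.20 (sgRNA2) and -0.01 (sgRNA3), and that between guides was 0.34 (sgRNA2 with sgRNA3). Without the farthest 2 IRs, r with insertions was 0.36 (sgRNA2), r with mutation frequency was 0.40 (sgRNA1), -0.10 (sgRNA2) and -0.14 (sgRNA3), and r between guides was 0.16 (sgRNA1 with sgRNA2) and 0.50 (sgRNA2 with sgRNA3). With short deletions in percent of mutated reads, r with insertions was 0.46 (sgRNA2) and -0.57 (sgRNA3), r with mutation frequency was 0.18 (sgRNA1), -0.50 (sgRNA2) and 0.31 (sgRNA3), and r between guides was 0.21 (sgRNA1 with sgRNA3) and -0.25 (sgRNA2 with sgRNA3).

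Placement sets the values that touch 3|4 with sgRNA1 and the side with sgRNA2, since the single G lost there lies in a pair. Depth limits single IRs most, with as few as 92 short deletions at an IR with sgRNA3. One clone, 1 sample for each guide and merged replicates leave no measure of the spread between assays, and PCR or sequencing errors of 1 or 2 bases were not measured in uncut cells.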

Other observations

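A small part of the short deletions lay outside the target and PAM: 573 reads with sgRNA1, 431 with sgRNA2 and 4 with sgRNA3. As a percentage of all reads this was 0.289% with sgRNA1 and 0.255% with sgRNA2, whose reads cover the same stretch, and 0.00190% with sgRNA3, whose reads cover another. They are counted in the shares of short deletions above.

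Rarer alleles on the PAM side with sgRNA2 often had a substituted base beside the loss. Loss of the C at position 2 had 155 reads, of which 78.7% had one, against 3.21% of wild-type reads at the same places. For loss of the A at position 1 these shares were 92.8% of 111 reads and 2.18%, and for loss of both bases 82.8% of 87 reads and 3.66%. These alleles were singled out after their values were seen.

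Reads with sgRNA1 and sgRNA2 begin with 1 of 4 pairs of bases. The study used 4 indexed forward primers for separate reactions of the cell line, and whether these bases are the end of that index was not tested. Over the 4 classes the share of deletion reads that were short ranged from 14.9% to 15.1% with sgRNA1 and from 23.2% to 23.7% with sgRNA2.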
